A study of Mus musculus with 4 samples.

Results

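The cDC1-like dendritic cells of the atherosclerotic mouse aorta, which form cluster 11 of the authors, were compared gene by gene with the mature dendritic cells of cluster 12. Cells were taken by the cluster number that the authors deposited for each cell. Cluster 11 held 47 cells and cluster 12 held 44 cells, together 91 of the 3002 cells of the series. Each was a live aortic cell sorted for CD45, a protein on the surface of white blood cells, and kept by the authors as myeloid. The mice were Apoe-/- and had eaten a western diet for 13 weeks. Without apolipoprotein E, a ligand for the uptake of lipoproteins by the liver, mice have high blood cholesterol and form plaques in their arteries. The 6 mice formed 2 biological replicates with 2 libraries each. The sources used here do not give how many mice went into each replicate. The p-values measure only the spread between these samples that the clusters do not share, estimated over 9 clusters. This spread may be partly technical. Every cell of both clusters carried the same genotype and diet, and no wild-type or chow-fed group was analysed here.

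Conventional dendritic cells take up material in a tissue and show pieces of it to T cells on MHC molecules. The cDC1 kind, which depends on the transcription factors Irf8 and Batf3, binds dead cells through the lectin Clec9a, answers to the chemokine of cytotoxic lymphocytes through Xcr1 and is known for presenting engulfed antigen on MHC class I. Dendritic cells that mature gain Ccr7, the receptor that leads them to lymph nodes, the actin bundler fascin (Fscn1) and molecules that stimulate or restrain T cells, and they lower the receptors used for uptake.

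In library order 1-1, 1-2, 2-1 and 2-2, cluster 11 held 3, 20, 5 and 19 cells, and cluster 12 held 4, 13, 6 and 21 cells. The share of cluster 11 among the myeloid cells of a library lay between 0.909% in library 2-1 (exact 95% interval 0.296 to 2.11) and 1.93% in library 2-2 (1.17 to 3.00). The share of cluster 12 lay between 1.06% in library 1-2 (0.563 to 1.80) and 2.13% in library 2-2 (1.32 to 3.24). No cell barcode was shared between libraries. Cells of cluster 11 were deeper, with a median of 8768 UMIs (unique molecular identifiers, which count captured transcripts) and 2433 detected genes, against 5176.5 UMIs and 1546.5 genes in cluster 12. Summed per cluster and biological replicate, the counts came to 195209 and 267437 UMIs in cluster 11, from 23 and 24 cells, and to 83383 and 150499 UMIs in cluster 12, from 17 and 27 cells. Levels are given as CPM, the count of a gene per 1000000 UMIs of the sum, first for biological replicate 1 and then for replicate 2. Log2 fold changes are cluster 11 over cluster 12, with their standard error, and a gene was called at an adjusted p under 0.05. The authors drew the clusters from these same counts, so the p-values are too small for a claim about cell types in general, and the differences describe the clusters as drawn.

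The deposited files give numbers for the clusters, and the names rest on marker genes. Earlier results of these data were known when the marker lists were picked. How the cells sort by these lists is therefore a description and no separate test of the names. All 47 cells of cluster 11 held more UMIs of the 12 cDC1 markers than of the 14 mature markers, and all 44 cells of cluster 12 held the reverse. Of 11 tested cDC1 markers, 10 were called higher in cluster 11 and 1, Batf3, was called lower. The cDC1 markers made up a median of 0.534% of the UMIs of a cell in cluster 11 and 0.0994% in cluster 12. The mature markers made up 0.0130% of the UMIs in cluster 11 and 1.29% in cluster 12. Cluster 4, the cDC2-like cluster with 276 cells, had medians of 0.0320% and 0.0477% for the same pair of lists. Of the general dendritic markers, Zbtb46 had 8 UMIs in cluster 11 and 15 in cluster 12, and Itgax, which encodes CD11c, had 21 UMIs in cluster 11 and 3 in cluster 12, too few for the test in either gene. Flt3, the growth factor receptor of dendritic cells, had 159 and 138 CPM in cluster 11, against 192 and 133 CPM in cluster 12, and the replicates overlapped (-0.17 ± 0.34, edgeR adjusted p = 0.729).

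**Figure D1:**
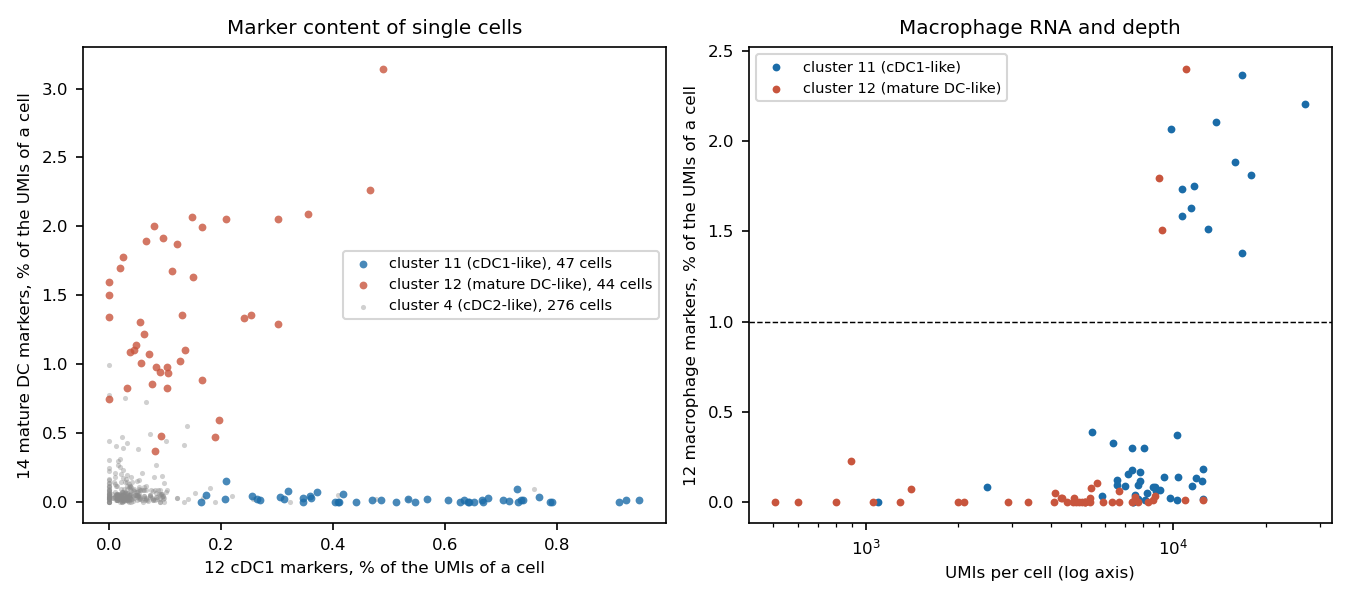
Left, each point is a cell, with the share of its UMIs from the 12 cDC1 markers on the x axis and from the 14 mature dendritic cell markers on the y axis, in percent; cells of cluster 11 lie along the x axis, cells of cluster 12 above it and the 276 cells of cluster 4 near the origin. Right, UMIs per cell on a log axis against the percent of UMIs from 12 macrophage markers in clusters 11 and 12; 12 cells of cluster 11 and 3 cells of cluster 12 lie above the dashed line at 1%.

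The 4 leading markers were found in most cells of their own cluster. Xcr1 (chr9:123852315-123862029, minus strand, GRCm38) was detected in 63.8% of cluster 11 (95% interval 48.5 to 77.3), 2.27% of cluster 12 and 0.725% of cluster 4. Clec9a (chr6:129408862-129424763, plus strand) had a UMI in 74.5% of the cells of cluster 11 (59.7 to 86.1), 5.07% of cluster 4 and in none of the 44 cells of cluster 12, which allows a share of up to 6.82%. Ccr7 (chr11:99144196-99155077, minus strand) was found in 4.26% of the cells of cluster 11 and 90.9% of cluster 12 (78.3 to 97.5), with 25.7% in cluster 4. Of its 5 UMIs in cluster 11, 4 came from 1 cell. Fscn1 (chr5:142960343-142973185, plus strand) was found in 0 of 47 cells of cluster 11, which allows up to 6.38%, and in 88.6% of cluster 12 (75.4 to 96.2), with 1.45% in cluster 4. In cluster 0, macrophages with a median of 4404 UMIs, 0.157% of cells had a UMI of Xcr1 and of Clec9a, 0.472% of Fscn1 and 0.63% of Ccr7, which is read here as the background. After each cell was thinned to 1000 UMIs, which left 47 cells in cluster 11 and 40 in cluster 12, the shares were 19.1% and 0% for Xcr1, 21.3% and 0% for Clec9a, 0% and 90.0% for Ccr7, and 0% and 70.0% for Fscn1, cluster 11 first. A count of 0 then allows up to 6.38% of cluster 11 and 7.5% of cluster 12.

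**Figure D2:**
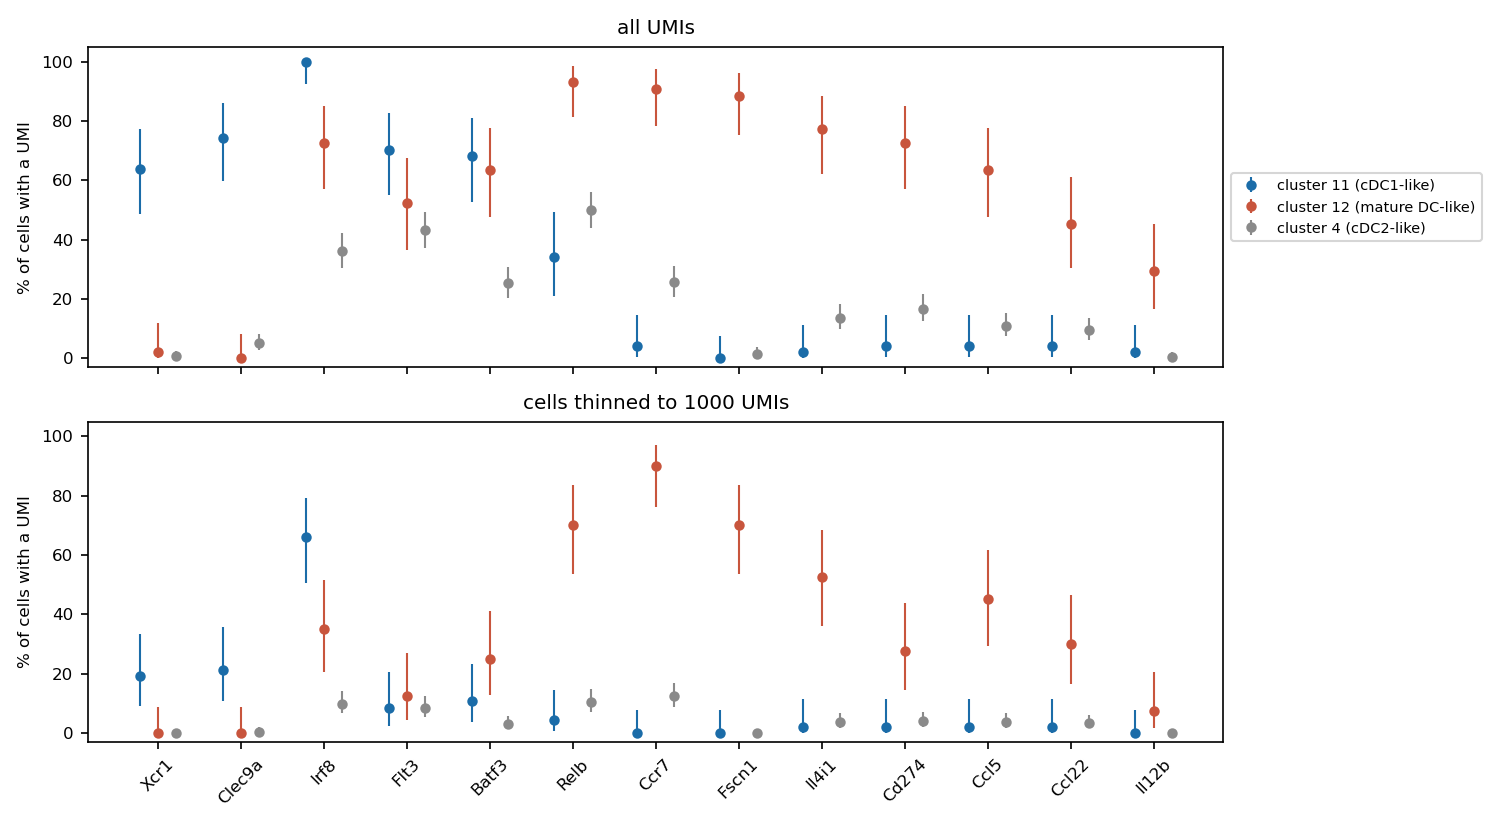
Percent of cells with at least 1 UMI of each gene in cluster 11, cluster 12 and cluster 4, with exact 95% intervals that cover counting error only, from all UMIs (top) and after thinning each cell to 1000 UMIs (bottom). Thinning lowers Xcr1 in cluster 11 to 19.1% and leaves Ccr7 in cluster 12 at 90.0%.

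RNA of macrophages was present in part of the cells. In 12 of the 47 cells of cluster 11, the 12 macrophage markers made up 1.38% to 2.37% of the UMIs, while the other 35 cells reached at most 0.386%. In cluster 12, 3 of 44 cells had 1.51% to 2.40%, and the other 41 reached at most 0.223%. The 12 cells were also deeper, with a median of 13409.5 UMIs against 7811 in the other 35 cells of cluster 11. The sources used here do not say how doublets were treated, and none were called here. Summed macrophage markers were 5717 and 9348 CPM in cluster 11, against 2147 and 2784 CPM in cluster 12, and none of the 12 was at 0 in either cluster. Many results are also given with these 15 cells left out, an alternative chosen after the data were seen. The cells were picked by the 12 markers, among them C1qa, Adgre1, Csf1r, Mrc1, Lyz2 and Cd68. A fall of these markers therefore follows from the step. It also removed deep cells and left fewer genes to test, so a lost call cannot be assigned to macrophage RNA alone. Without the 15 cells, C1qa, a complement gene of macrophages, had 172 and 7.05 CPM in cluster 11, against 13.4 and 0 CPM in cluster 12. The macrophage genes Adgre1, Csf1r, Mrc1 and Fcgr3 had at most 3 UMIs in either cluster. The macrophage gene Lyz2 had 847 and 585 CPM in cluster 11, against 67.2 and 53.7 CPM in cluster 12, after the same step.

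Of 2581 genes that passed the filter on low counts, 531 (20.6%) were called higher in cluster 11 and 535 (20.7%) lower, 1066 (41.3%) in all. The groups were close in number, and in 1060 of the 1066 the direction was the same in both biological replicates. In 1730 of the 2581 tested genes (67%) the replicates of the clusters did not overlap, and in 1052 of the called genes. With the 15 cells that carried macrophage RNA left out, 2016 genes were tested, 468 were higher and 484 lower. Of the earlier calls that were tested again, 395 of 422 higher genes and 451 of 483 lower genes were called again in the same direction. The counts of most gene lists are given with and without these cells, and can be read against the 41.3% called over all genes. Several lists also hold markers that the cluster names rest on, such as Ccl22, Ccl17, Ccr7, Xcr1, Fscn1, Wdfy4 and Relb. The calls of these members are no separate evidence.

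**Figure D3:**
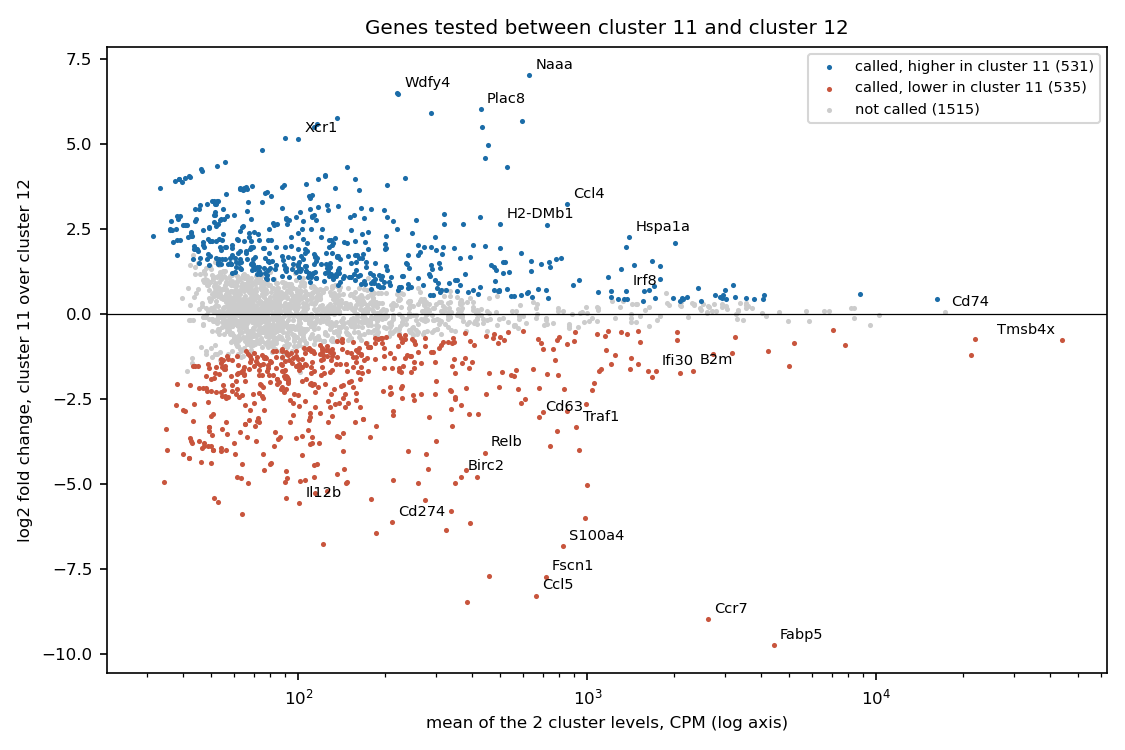
Each of the 2581 tested genes by its mean level in clusters 11 and 12 (CPM, log axis) and its log2 fold change, cluster 11 over cluster 12; genes with 0 counts in a cluster are drawn at the bound that 3 counts would give. Blue genes were called higher and red genes lower in cluster 11, with Naaa near the top and Fabp5 and Ccr7 at the bottom.

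Among the genes highest in cluster 11, several encode enzymes of the lysosome, the compartment that breaks down engulfed material. Naaa (chr5:92257659-92278170, minus strand), an acid amidase of the lysosome and a cDC1 marker, had 1419 and 1081 CPM in cluster 11, against 0 and 13.3 CPM in cluster 12. It was 143-fold higher in cluster 11 as a ratio of pooled counts (95% interval 39.4 to 1184) with an edgeR adjusted p = 4.54e-12. The palmitoyl thioesterase gene Ppt1 had 579 and 553 CPM in cluster 11, against 11.99 and 6.64 CPM in cluster 12. The saposin precursor gene Psap, needed for the breakdown of sphingolipids, had 3550.0 and 3167 CPM in cluster 11, against 408 and 937 CPM in cluster 12 (2.10 ± 0.23, edgeR adjusted p = 2.89e-08). Gm2a, the activator protein for ganglioside breakdown, had 1076 and 953 CPM in cluster 11, against 24.0 and 59.8 CPM in cluster 12 (4.32 ± 0.29, edgeR adjusted p = 3.82e-12). All these genes were high in both replicates of cluster 11, and the replicates of cluster 12 lay below them. Of 22 tested genes of the lysosome and cathepsin list, 10 were higher and 5 lower in cluster 11, with a median log2 fold change of 0.64 beside 0.07 over all tested genes. After cells with macrophage RNA were removed 9 of 19 were higher and 7 lower, and with the size factors of DESeq2 8 of 22 were higher and 6 lower. The 5 lower genes were Ctsh, Ctsz, the protease inhibitor gene Cstb and the membrane protein genes Lamp1 and Cd63. The tetraspanin gene Cd63 had 133 and 179 CPM in cluster 11, against 1079 and 1329 CPM in cluster 12 (-3.03 ± 0.22, edgeR adjusted p = 1.89e-11), and the aminopeptidase gene Ctsh had 374 and 482 CPM in cluster 11, against 1991 and 1369 CPM in cluster 12.

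Receptors for uptake were mostly higher in cluster 11 than in cluster 12. Of 10 tested genes of endocytic and Fc receptors, 8 were higher and 1 lower, with a median of 2.24. Summed, the list had 2141 and 2812 CPM in cluster 11, against 851 and 957 CPM in cluster 12. Cluster 4 had the highest sums, 5493 and 5133 CPM, so a high level was not particular to cluster 11. Clec9a had 189.5 and 168 CPM in cluster 11, against 0 and 0 CPM in cluster 12, at least 13.8-fold higher in cluster 11 (edgeR adjusted p = 2.92e-05). The inhibitory lectin gene Clec12a had 189.5 and 176 CPM in cluster 11, against 24.0 and 26.6 CPM in cluster 12 (2.73 ± 0.51, edgeR adjusted p = 0.000117), and this call stood without the cells with macrophage RNA. The gene that was lower in cluster 11 was Ly75, which encodes the uptake receptor DEC-205, with 0 and 11.2 CPM in cluster 11, against 119.9 and 173 CPM in cluster 12 (edgeR adjusted p = 0.000169). This call was lost with the Wald test of DESeq2 (adjusted p = 0.542). DEC-205 is known as a surface marker of cDC1 in lymphoid organs, and its mean level was 0.844 CPM in cluster 4. The macrophage mannose receptor gene Mrc1, the scavenger receptor gene Cd36 and the Fc receptor genes Fcgr2b, Fcgr3 and Fcer1g were also called higher in cluster 11, in sums that held the macrophage RNA described above. Without those cells, 5 members of the list were tested, 3 were higher and 1 lower, and Fcer1g was not called (edgeR adjusted p = 0.141).

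Of 29 measured genes of pattern recognition 4 were high enough to be tested. Unc93b1 and Myd88 were higher in cluster 11, and Cd14 and Tmem173, the gene of STING, were not called. Unc93b1, the chaperone that brings nucleic acid sensing Toll-like receptors to endosomes, had 409.8 and 426 CPM in cluster 11, against 119.9 and 79.7 CPM in cluster 12 (2.05 ± 0.28, edgeR adjusted p = 1.69e-06). The adaptor gene Myd88 had 71.7 and 78.5 CPM in cluster 11, against 11.99 and 0 CPM in cluster 12, 17.7-fold higher in cluster 11 as a ratio of pooled counts (95% interval 2.97 to 719). Tlr3, the receptor for double-stranded RNA and a cDC1 marker, was at 0 in cluster 12 and too low in cluster 11 for the test, with 82.0 and 48.6 CPM. Wdfy4 (chr14:32959547-33185508, minus strand), a protein that cDC1 need for cross-presentation of cell-bound antigen, had 466 and 411 CPM in cluster 11, against 0 and 6.64 CPM in cluster 12. It was 102-fold higher in cluster 11 as a ratio of pooled counts (95% interval 18.03 to 4033) with an edgeR adjusted p = 6.1e-10. The aryl hydrocarbon receptor gene Ahr, a sensor of dietary and microbial ligands, had 409.8 and 445 CPM in cluster 11, against 36.0 and 99.7 CPM in cluster 12 (2.39 ± 0.33, edgeR adjusted p = 2.47e-06).

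Other genes that led cluster 11 include an integrin chain and a protein of lipid mediator synthesis. Plac8, a gene also high in monocytes and in the authors' cluster 4, had 922 and 789 CPM in cluster 11, against 0 and 0 CPM in cluster 12, at least 65.9-fold higher in cluster 11; its level was 756 CPM in cluster 4. The integrin gene Itgb7, partner of Itgae in the receptor for E-cadherin, had 292 and 243 CPM in cluster 11, against 0 and 6.64 CPM in cluster 12, and Itgae had 174 and 93.5 CPM in cluster 11, against 0 and 0 CPM in cluster 12. The call of Itgae was lost with the Wald test of DESeq2 (adjusted p = 0.322). Alox5ap, which presents arachidonic acid to the enzyme that begins leukotriene synthesis, had 891 and 856 CPM in cluster 11, against 59.96 and 6.64 CPM in cluster 12 (4.97 ± 0.37, edgeR adjusted p = 4.2e-11). The orphan receptor gene Gpr171 had 446 and 423 CPM in cluster 11, against 0 and 6.64 CPM in cluster 12, and the creatine kinase gene Ckb had 1332 and 1017 CPM in cluster 11, against 0 and 33.2 CPM in cluster 12. The interferon-inducible gene Ifi205, a cDC1 marker, had 251 and 191 CPM in cluster 11, against 11.99 and 0 CPM in cluster 12. None of these genes had overlapping replicates. Cyth4, Camk1d, Plbd1 and Zfp36l2 were also among the 15 genes of highest fold at 200 CPM or more in cluster 11, all with at most 46.5 CPM in a replicate of cluster 12.

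The MHC class II chains were abundant in both clusters, and genes of peptide loading moved in both directions. H2-Aa had 8959.6 and 7736 CPM in cluster 11, against 7615 and 9176 CPM in cluster 12 (-0.11 ± 0.16, edgeR adjusted p = 0.65), and the invariant chain gene Cd74 had 19538 and 17167 CPM in cluster 11, against 14044 and 18545 CPM in cluster 12 (0.07 ± 0.18, edgeR adjusted p = 0.784). The replicates of both genes overlapped. The chain gene H2-Ab1 was higher in cluster 11, with 11623 and 10044 CPM in cluster 11, against 5589 and 7894 CPM in cluster 12 (0.59 ± 0.17, edgeR adjusted p = 0.00612). H2-DMa and H2-DMb1 encode DM, which exchanges peptides on class II molecules. H2-DMb1 had 850.4 and 905 CPM in cluster 11, against 84.0 and 159 CPM in cluster 12 (2.66 ± 0.25, edgeR adjusted p = 2.67e-09), and H2-DMa had 1025 and 830.1 CPM in cluster 11, against 276 and 233 CPM in cluster 12. H2-Ob, part of the inhibitor of DM, had 138 and 104.7 CPM in cluster 11, against 0 and 13.3 CPM in cluster 12, 13.9-fold higher in cluster 11 as a ratio of pooled counts (95% interval 3.67 to 118). March1, the ubiquitin ligase that removes class II and Cd86 from the surface, had 97.3 and 67.3 CPM in cluster 11, against 0 and 0 CPM in cluster 12, at least 6.23-fold higher in cluster 11 (edgeR adjusted p = 0.000182). The opposite direction was seen in H2-Eb2, H2-DMb2 and Ifi30. Ifi30, a thiol reductase that unfolds antigen for class II, had 1019 and 710.4 CPM in cluster 11, against 2842 and 2319 CPM in cluster 12 (-1.68 ± 0.16, edgeR adjusted p = 2.67e-09). In all, 5 of 14 tested class II genes were higher and 3 lower in cluster 11. With the size factors of DESeq2 in place of TMM scaling 5 were higher and 5 lower, and without the cells with macrophage RNA 4 of 13 were higher and 4 lower. H2 genes have near-identical copies between which the counting could split reads, so their single values are uncertain.

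MHC class I chains were lower in cluster 11. H2-K1 had 1276 and 808 CPM in cluster 11, against 3190.1 and 3083 CPM in cluster 12 (-1.72 ± 0.15, edgeR adjusted p = 9.33e-10). The light chain gene B2m had 1429 and 957 CPM in cluster 11, against 3394 and 3522 CPM in cluster 12 (-1.66 ± 0.16, edgeR adjusted p = 4.61e-09), and H2-D1 had 1798 and 1694 CPM in cluster 11, against 3394 and 3973 CPM in cluster 12 (-1.18 ± 0.15, edgeR adjusted p = 3.27e-07). Every replicate of cluster 11 lay below every replicate of cluster 12 in these genes. Psme2, a subunit of the proteasome activator that interferon induces, had 261 and 254 CPM in cluster 11, against 887 and 824 CPM in cluster 12 (-1.82 ± 0.20, edgeR adjusted p = 4.29e-08). The peptide transporter genes Tap1 and Tap2 were not called, with log2 fold changes of -0.28 ± 0.30 and -0.03 ± 0.35. Pdia3 and Calr, members of the peptide loading complex in the endoplasmic reticulum, were higher, and Calr had 1142 and 1107 CPM in cluster 11, against 299.8 and 399 CPM in cluster 12 (1.53 ± 0.20, edgeR adjusted p = 8.63e-07). Of 20 tested genes of class I presentation and cross-presentation, 3 were higher and 8 lower in cluster 11, and Wdfy4, Calr and Pdia3 were the higher ones. Leaving out cells with macrophage RNA, 3 of 19 were higher and 9 lower.

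The migration genes Ccr7 and Fscn1 were far lower in cluster 11. Ccr7 had 25.6 and 0 CPM in cluster 11, against 5253 and 5183 CPM in cluster 12. Cluster 11 was lower by 8.97 ± 0.39 on the log2 scale (edgeR adjusted p = 8.75e-15). Fscn1 had 0 and 0 CPM in cluster 11, against 1679 and 1189 CPM in cluster 12, at least 210.3-fold lower in cluster 11 (edgeR adjusted p = 9.41e-15). Cluster 4 stood between the clusters in Ccr7, with a mean of 246 CPM, and had 3.54 CPM of Fscn1. The oxysterol receptor gene Gpr183, which positions dendritic cells in lymphoid tissue, had 97.3 and 116 CPM in cluster 11, against 216 and 359 CPM in cluster 12 (-1.59 ± 0.30, edgeR adjusted p = 0.000135). Cxcr5, a receptor for the B cell zone chemokine, had 10.2 and 0 CPM in cluster 11, against 84.0 and 73.1 CPM in cluster 12. Of 8 tested receptor genes 3 were higher and 3 lower, and Xcr1 and Ccr2 were among the higher ones. Xcr1 had 292 and 101 CPM in cluster 11, against 0 and 6.64 CPM in cluster 12 (edgeR adjusted p = 0.00015). It was 42.5-fold higher in cluster 11 as a ratio of pooled counts (95% interval 7.42 to 1697), and the call was lost with the Wald test of DESeq2 (adjusted p = 0.530). Only 10 of the 17 alternatives could test Xcr1. Ccr2, a receptor of monocytes and of some dendritic cells, had 425 and 191 CPM in cluster 11, against 0 and 33.2 CPM in cluster 12 (3.65 ± 0.71, edgeR adjusted p = 0.00017). This call was lost in replicate 2 alone, with its 2 libraries as samples, at 2.43 (edgeR adjusted p = 0.0957). Without the cells with macrophage RNA, Ccr2 had 365 and 296 CPM in cluster 11, against 0 and 0 CPM in cluster 12.

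Of 13 tested genes of chemokine ligands 3 were higher in cluster 11 and 4, Ccl5, Ccl22, Ccl17 and Cxcl16, were lower. Ccl5, which draws T cells, had 10.2 and 0 CPM in cluster 11, against 1379 and 1256 CPM in cluster 12 (edgeR adjusted p = 9.67e-13). It was 301-fold lower in cluster 11 as a ratio of pooled counts (95% interval 82.5 to 2494). Ccl22 and Ccl17 are ligands of Ccr4, carried by regulatory and helper T cells. Ccl22 had 0 and 22.4 CPM in cluster 11, against 552 and 771 CPM in cluster 12 (-5.79 ± 0.50, edgeR adjusted p = 1.22e-09), and Ccl17 had 10.2 and 3.74 CPM in cluster 11, against 239.9 and 66.4 CPM in cluster 12. Cxcl16 had 307 and 310.4 CPM in cluster 11, against 1511 and 1203 CPM in cluster 12 (-2.20 ± 0.18, edgeR adjusted p = 2.37e-10). In each of these genes the replicates of the clusters stood apart. Ccl17 was found in only 8 of 44 cells of cluster 12, and 14 of its 30 UMIs came from 1 cell. In cluster 4 it had 187 UMIs in 16 of 276 cells. Ccl4, a chemokine made by many activated myeloid cells, was higher in cluster 11, with 1076 and 1959 CPM in cluster 11, against 276 and 79.7 CPM in cluster 12 (3.23 ± 0.52, edgeR adjusted p = 1.5e-05). With cells that carried macrophage RNA left out it had 895 and 2381 CPM in cluster 11, against 26.9 and 0 CPM in cluster 12, and with replicate 1 alone its call was lost (edgeR adjusted p = 0.177). Ccl6 and Ccl8, both made by macrophages, were also called higher, and the call of Ccl8 was lost in 5 of 11 alternatives, with adjusted p up to 0.0920. Without those cells Ccl8 had 3 UMIs in cluster 11 and 2 in cluster 12, and Ccl6 could not be tested. The ligands Ccl2, Ccl3, Ccl7, Ccl9, Ccl12 and Cxcl2 were not called with all cells. Of these, Ccl2 and Ccl3 were called higher in cluster 11 once the cells with macrophage RNA were left out. Ccl2 then had 89.5 and 162 CPM in cluster 11, against 0 and 7.68 CPM in cluster 12 (edgeR adjusted p = 0.00417). Ccl3 had 172 and 91.6 CPM in cluster 11, against 0 and 7.68 CPM in cluster 12 (edgeR adjusted p = 0.00133).

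**Figure D4:**
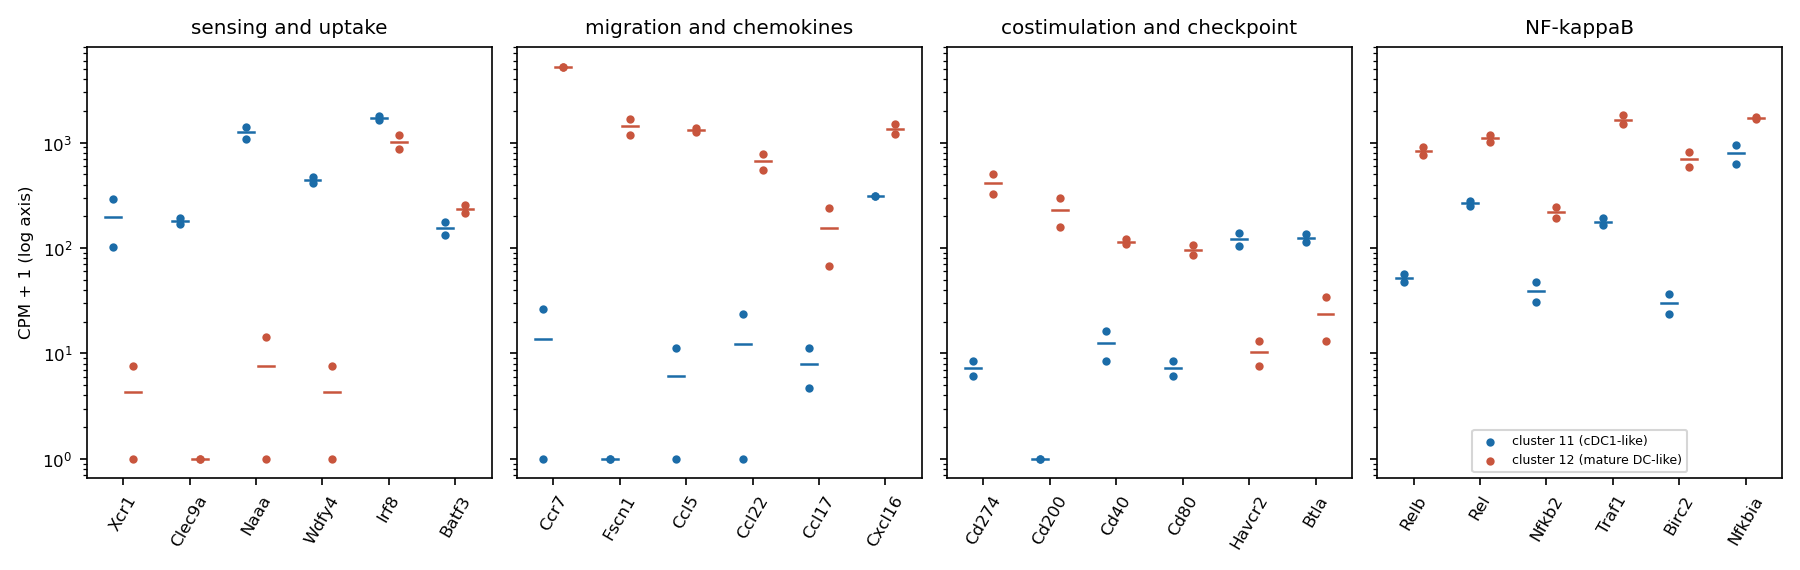
Levels of 24 genes in each biological replicate (points) and their mean (short lines), as CPM plus 1 on a log axis, in cluster 11 (left of each pair) and cluster 12. Xcr1, Clec9a, Naaa and Wdfy4 are high in cluster 11, Ccr7, Fscn1, Ccl5, Cd200 and Relb in cluster 12, and Irf8 and Batf3 differ least.

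The cytoskeleton genes moved in both directions. Of 40 tested genes of actin, fascin and migration, 12 were higher and 19 lower in cluster 11. Actb, the main actin of these cells, had 14041 and 13049.8 CPM in cluster 11, against 27907 and 29940.4 CPM in cluster 12 (-1.18 ± 0.14, edgeR adjusted p = 9.05e-08), and the actin-binding thymosin gene Tmsb4x had 36013 and 31192 CPM in cluster 11, against 51114 and 56625 CPM in cluster 12 (-0.77 ± 0.12, edgeR adjusted p = 1.04e-05). Its relative Tmsb10 went the other way, with 2131 and 2329.5 CPM in cluster 11, against 1007 and 1329 CPM in cluster 12 (0.82 ± 0.18, edgeR adjusted p = 0.000536). The membrane myosin gene Myo1g had 108 and 78.5 CPM in cluster 11, against 539.7 and 618 CPM in cluster 12 (-2.80 ± 0.24, edgeR adjusted p = 6.1e-10), and Marcksl1, which links actin to the membrane, had 92.2 and 104.7 CPM in cluster 11, against 851 and 625 CPM in cluster 12 (-2.94 ± 0.26, edgeR adjusted p = 9.2e-10). The annexin gene Anxa3 had 10.2 and 44.9 CPM in cluster 11, against 899 and 704 CPM in cluster 12 (-4.78 ± 0.31, edgeR adjusted p = 1.98e-12). Subunits of integrins divided, with Itga4 lower and Itgb2 and Itgb7 higher in cluster 11. Itgb2, the beta chain of CD11b and CD11c, had 282 and 221 CPM in cluster 11, against 11.99 and 19.9 CPM in cluster 12 (3.72 ± 0.47, edgeR adjusted p = 4.27e-07). In none of the genes given here with values did the replicates of the clusters overlap. Arpc1b, Arpc2 and Arpc3 of the Arp2/3 complex were not called.

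Costimulatory and checkpoint genes were lower in cluster 11 in 9 of 17 tested members and higher in 4. Cd274 (chr19:29367455-29388095, plus strand) encodes PD-L1, which restrains T cells, and had 5.12 and 7.48 CPM in cluster 11, against 324 and 505 CPM in cluster 12. It was 67.9-fold lower in cluster 11 as a ratio of pooled counts (95% interval 22.6 to 335) with an edgeR adjusted p = 1.89e-09. Cd200, another ligand that restrains its target cell, had 0 and 0 CPM in cluster 11, against 156 and 299 CPM in cluster 12, at least 38.2-fold lower in cluster 11. Cd40, the receptor for help from T cells, had 15.4 and 7.48 CPM in cluster 11, against 108 and 119.6 CPM in cluster 12 (-3.47 ± 0.62, edgeR adjusted p = 6.47e-05), and the costimulator gene Cd80 had 5.12 and 7.48 CPM in cluster 11, against 84.0 and 106 CPM in cluster 12. Cd86, the partner of Cd80, had 261 and 314 CPM in cluster 11, against 456 and 252 CPM in cluster 12, with overlapping replicates (-0.28 ± 0.26, edgeR adjusted p = 0.426). Apart from Cd86, the replicates of the clusters stood apart in each of these genes. Among the lower genes were members of the TNF receptor family that are better known on T cells. Tnfrsf4, which encodes OX40, had 0 and 3.74 CPM in cluster 11, against 252 and 233 CPM in cluster 12, and Tnfrsf9, which encodes 4-1BB, had 0 and 0 CPM in cluster 11, against 179.9 and 186 CPM in cluster 12. The 4 genes higher in cluster 11 were Havcr2, Btla, Cd48 and Vsir. Havcr2 encodes TIM-3, a receptor known to restrain cDC1 in mouse tumours, and had 102 and 138 CPM in cluster 11, against 11.99 and 6.64 CPM in cluster 12, 14.4-fold higher in cluster 11 as a ratio of pooled counts (95% interval 3.81 to 122). Btla, a receptor that inhibits lymphocytes, had 113 and 135 CPM in cluster 11, against 11.99 and 33.2 CPM in cluster 12 (2.17 ± 0.64, edgeR adjusted p = 0.00873). After cells with macrophage RNA were removed 4 of 13 tested members were higher and 8 lower.

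Cytokine genes and cytokine receptors that could be tested were lower in cluster 11 in 8 of 16 cases and higher in 2. Il12b, the shared subunit of IL-12 and IL-23, had 10.2 and 0 CPM in cluster 11, against 192 and 199 CPM in cluster 12, 45.5-fold lower in cluster 11 as a ratio of pooled counts (95% interval 11.9 to 387). It was found in 2.13% of the cells of cluster 11, 29.5% of cluster 12 (exact 95% interval 16.8 to 45.2) and 0.362% of cluster 4, and in none of 635 cells of cluster 0, which allows up to 0.472%. Of the 46 UMIs of Il12b in cluster 12, 16 came from 1 cell, and library 1-1, with 4 cells of that cluster, had 0. Thinned to 1000 UMIs, 7.5% of cluster 12 and no cell of cluster 11 had a UMI of it. Il1b had 2274 and 2430.5 CPM in cluster 11, against 1163 and 1601 CPM in cluster 12 and was not called (0.62 ± 0.35, edgeR adjusted p = 0.16). Receptor chains made up most of the lower genes. Il7r, a chain of the IL-7 and TSLP receptors, had 0 and 0 CPM in cluster 11, against 119.9 and 239 CPM in cluster 12, at least 30.3-fold lower in cluster 11. Il2ra, the high-affinity chain for IL-2, had 0 and 0 CPM in cluster 11, against 264 and 99.7 CPM in cluster 12, at least 24.4-fold lower in cluster 11. Neither gene had a UMI in cluster 11. The shared chain gene Il2rg had 10.2 and 7.48 CPM in cluster 11, against 144 and 139.5 CPM in cluster 12 (-4.10 ± 0.57, edgeR adjusted p = 1.81e-06), with a mean of 128 CPM in cluster 4. The 2 higher genes were Ifngr1 and Tgfb1. Ifngr1, a chain of the receptor for interferon gamma, had 328 and 322 CPM in cluster 11, against 72.0 and 73.1 CPM in cluster 12 (2.06 ± 0.33, edgeR adjusted p = 1.19e-05). Leaving out cells with macrophage RNA, 2 of 12 tested members were higher and 6 lower. Outside this list Il4i1, an enzyme that breaks down aromatic amino acids and limits T cells, had 5.12 and 0 CPM in cluster 11, against 659.6 and 864 CPM in cluster 12, 366-fold lower in cluster 11 as a ratio of pooled counts (95% interval 64.9 to 14532).

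NF-kappaB factors switch on genes of maturation. In the canonical route Ikbkb frees Rel and Rela from inhibitors such as Nfkbia, and in the other route Map3k14 starts the processing of Nfkb2, the partner of Relb. Of 20 tested genes of this list, none was higher and 12 were lower in cluster 11, with a median log2 fold change of -1.24 beside 0.07 over all tested genes. Of the 12, Relb and Birc3 are also mature markers on which the name of cluster 12 rests. Without the cells with macrophage RNA, 13 of 15 were lower. Relb (chr7:19606217-19629438, minus strand) had 46.1 and 56.1 CPM in cluster 11, against 899 and 764 CPM in cluster 12 (-4.07 ± 0.25, edgeR adjusted p = 7.13e-13). Its partner Nfkb2 had 46.1 and 29.9 CPM in cluster 11, against 192 and 246 CPM in cluster 12 (-2.71 ± 0.38, edgeR adjusted p = 1.9e-06). Rel had 251 and 277 CPM in cluster 11, against 1007 and 1183 CPM in cluster 12 (-2.15 ± 0.19, edgeR adjusted p = 8.83e-10). Every replicate of cluster 11 lay below every replicate of cluster 12 in these 3 genes. Map3k14 had 149 and 149.6 CPM in cluster 11, against 396 and 286 CPM in cluster 12 (-1.23 ± 0.24, edgeR adjusted p = 0.000228) and Ikbkb had 123 and 123 CPM in cluster 11, against 336 and 399 CPM in cluster 12 (-1.70 ± 0.26, edgeR adjusted p = 7.25e-06). Both kinase genes were lower in cluster 11. The adaptor gene Traf1 had 164 and 191 CPM in cluster 11, against 1499 and 1807 CPM in cluster 12 (-3.32 ± 0.26, edgeR adjusted p = 1.01e-10), and Birc2, which keeps Map3k14 low in resting cells, had 35.9 and 22.4 CPM in cluster 11, against 588 and 817 CPM in cluster 12 (-4.77 ± 0.31, edgeR adjusted p = 3.82e-12). Inhibitors were lower as well. Nfkbia had 619.8 and 953 CPM in cluster 11, against 1751 and 1661 CPM in cluster 12 (-1.18 ± 0.21, edgeR adjusted p = 6.17e-05), and Nfkbib and Nfkbie were called in the same direction. This call was lost when library 1-2 was left out, at -0.75 (edgeR adjusted p = 0.256), and in replicate 1 alone, at -1.74 (edgeR adjusted p = 0.0567). Rela, the inhibitor genes Nfkbiz, Nfkbid and Tnfaip3, and Chuk, Cyld, Map3k8 and Tnip3 were not called. Cluster 4 had 112 CPM of Relb and 735 CPM of Traf1, between the clusters in both genes.

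The promoters of 4 genes that were lower in cluster 11 are shown because each holds the kappaB motif, the letters that this factor family binds. They were chosen after the matches were seen, from the RefSeq promoter table on GRCm38.p6, and cover the 250 bases before an annotated start; capitals mark letters that match the motif on either strand. The Nfkb2 stretch is chr19:46304487-46304736, plus strand, the Nfkbia stretch chr12:55492648-55492897, minus strand, the Tnfrsf9 stretch chr4:150927749-150927998, plus strand, and the Il2ra stretch chr2:11642542-11642791, plus strand.
Nfkb2: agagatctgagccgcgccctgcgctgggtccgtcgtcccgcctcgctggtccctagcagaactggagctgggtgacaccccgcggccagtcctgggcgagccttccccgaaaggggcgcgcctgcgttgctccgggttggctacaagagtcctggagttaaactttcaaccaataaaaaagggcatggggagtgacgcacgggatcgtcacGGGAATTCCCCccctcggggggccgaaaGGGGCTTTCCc
Nfkbia: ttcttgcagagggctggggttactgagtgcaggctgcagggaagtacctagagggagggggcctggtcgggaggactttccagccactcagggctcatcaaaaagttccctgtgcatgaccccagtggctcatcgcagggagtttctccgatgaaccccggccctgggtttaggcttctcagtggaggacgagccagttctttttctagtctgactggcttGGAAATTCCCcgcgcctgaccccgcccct
Tnfrsf9: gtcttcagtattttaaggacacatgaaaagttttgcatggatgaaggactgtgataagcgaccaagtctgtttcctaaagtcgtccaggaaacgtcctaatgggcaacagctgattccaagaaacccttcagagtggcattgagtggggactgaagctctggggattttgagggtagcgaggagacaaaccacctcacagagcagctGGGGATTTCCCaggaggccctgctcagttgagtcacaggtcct
Il2ra: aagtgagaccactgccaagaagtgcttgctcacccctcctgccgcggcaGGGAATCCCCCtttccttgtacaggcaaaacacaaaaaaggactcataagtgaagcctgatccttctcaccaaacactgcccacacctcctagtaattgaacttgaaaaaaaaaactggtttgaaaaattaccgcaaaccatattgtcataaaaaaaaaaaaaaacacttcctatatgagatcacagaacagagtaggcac
The table held promoters of 404 of the 531 genes higher in cluster 11 and of 426 of the 535 lower genes. Within windows from 250 bases before to 50 bases after the start, the kappaB motif was found on either strand in 102 of 582 promoters of genes lower in cluster 11 (17.5%). It was found in 49 of 534 promoters of genes higher in cluster 11 (9.18%), in 11.8% of the promoters of all tested genes and in 8.46% of all 32851 promoters of the table. In the NF-kappaB list itself, 13 of 32 promoters held it (40.6%), and none of 13 promoters of the mature dendritic cell markers did. The same search covered the PU.1-IRF composite, ISRE and AP-1 motifs. They were found in 2.41%, 3.78% and 3.78% of promoters of lower genes, and in 2.81%, 4.31% and 4.12% of promoters of higher genes. Of the motifs searched, kappaB was the one with the widest difference in percentage points. It was also the most frequent over all promoters of the table, where the others, in the same order, were found in 2.72%, 3.44% and 5.20%. The lower genes include members of the NF-kappaB list, and 6 of the 12 promoters of those members held the kappaB motif. What sets these shares apart was not tested. These are matches of letters, and binding was not measured.

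Lineage transcription factors divided between the clusters, with 11 of 35 tested members higher and 13 lower in cluster 11. Irf8 (chr8:120736358-120756694, plus strand), which cDC1 need to develop and to survive, had 1619 and 1779.9 CPM in cluster 11, against 1175 and 864 CPM in cluster 12 (0.69 ± 0.19, edgeR adjusted p = 0.00555). It was found in all 47 cells of cluster 11 and in 72.7% of cluster 12, with 36.2% in cluster 4 and 55.0% in the macrophages of cluster 0. Its call was lost with the Wald test of DESeq2, at 0.55 (adjusted p = 0.114). It was lost as well when library 1-2 was left out, at 0.61 (edgeR adjusted p = 0.205), and when library 2-2 was left out, at 0.20 (edgeR adjusted p = 0.535). In replicate 1 alone, with its 2 libraries as samples, the log2 fold change of Irf8 was 0.19 and was not called (edgeR adjusted p = 0.717). Batf3, the other factor of cDC1, was lower in cluster 11, with 133 and 176 CPM in cluster 11, against 216 and 252 CPM in cluster 12 (-0.69 ± 0.27, edgeR adjusted p = 0.0437), and 11 of the 16 alternatives that could test it lost this call. Cluster 4 had means of 153 CPM of Irf8 and 50.2 CPM of Batf3, below every replicate of both clusters. Id2, which all conventional dendritic cells use, had 543 and 666 CPM in cluster 11, against 1007 and 924 CPM in cluster 12 (-0.75 ± 0.16, edgeR adjusted p = 0.000551). Irf4, known from cDC2, had 2 UMIs in cluster 11 and 3 in cluster 12, and was found in 20.3% of the cells of cluster 4. Stat4, which relays IL-12, had 20.5 and 7.48 CPM in cluster 11, against 216 and 332 CPM in cluster 12 (-4.55 ± 0.50, edgeR adjusted p = 7.68e-08), and the B lineage factor Spib had 5.12 and 0 CPM in cluster 11, against 132 and 66.4 CPM in cluster 12. The call of Spib was lost with the Wald test of DESeq2 (adjusted p = 0.507). On the other side, Irf7 had 82.0 and 78.5 CPM in cluster 11, against 0 and 6.64 CPM in cluster 12, Klf2 had 640.3 and 823 CPM in cluster 11, against 72.0 and 239 CPM in cluster 12 (2.01 ± 0.34, edgeR adjusted p = 2.7e-05), and Nr4a1 and Nr4a2 were higher in cluster 11 while their relative Nr4a3 was lower. Nr4a3, needed for the migration of dendritic cells in mice, had 138 and 112 CPM in cluster 11, against 588 and 512 CPM in cluster 12 (-2.25 ± 0.31, edgeR adjusted p = 1.95e-06).

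Genes on the list of apoptosis regulators were lower in cluster 11 in 11 of 16 tested cases and higher in 1, with a median of -1.84. The group held both protective and harmful members. Bcl2a1b, a relative of Bcl2 that protects cells, had 97.3 and 101 CPM in cluster 11, against 1379 and 1382 CPM in cluster 12 (-3.89 ± 0.23, edgeR adjusted p = 4.2e-13); its copies Bcl2a1a and Bcl2a1d share near-identical sequence, so the split between them is uncertain. The death receptor gene Fas had 5.12 and 11.2 CPM in cluster 11, against 144 and 66.4 CPM in cluster 12 (-3.52 ± 0.77, edgeR adjusted p = 0.000614), and Pmaip1, which encodes the killer protein NOXA, had 189.5 and 224 CPM in cluster 11, against 479.7 and 485 CPM in cluster 12 (-1.30 ± 0.26, edgeR adjusted p = 0.000204). Cflar, which blocks death receptors, had 82.0 and 74.8 CPM in cluster 11, against 168 and 193 CPM in cluster 12. Birc2 and Birc3 are counted here and in the NF-kappaB list. Cd63, the tetraspanin gene given above, is counted here and in the lysosome list. The gene that was higher in cluster 11 was the caspase gene Casp6, with 113 and 71.0 CPM in cluster 11, against 24.0 and 0 CPM in cluster 12. With cells that carried macrophage RNA left out 2 of 13 tested members were higher and 9 lower.

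Feedback genes of cytokine signals were mixed, with Socs2, Dusp5 and Ptpn1 lower, Ptpn6 higher and 4 of 8 tested members not called. The call of Ptpn1 was lost in 9 of 15 alternatives, and stood at -0.24 when library 2-2 was left out (edgeR adjusted p = 0.643). The call of Dusp5 was lost in 3 of 17, among them without replicate 1, at -0.41 (edgeR adjusted p = 0.435), and that of Ptpn6 in 2 of 12. Socs2, which limits the growth hormone and cytokine pathway and is a marker of mature dendritic cells, had 5.12 and 22.4 CPM in cluster 11, against 359.8 and 465 CPM in cluster 12 (-4.88 ± 0.47, edgeR adjusted p = 4.68e-09). Among interferon-stimulated genes 4 of 10 were higher and 2 lower in cluster 11, and with the size factors of DESeq2 4 were higher and 3 lower. Ifitm3 had 707 and 856 CPM in cluster 11, against 168 and 306 CPM in cluster 12 (1.55 ± 0.23, edgeR adjusted p = 3.5e-06), Ifi203 had 184 and 183 CPM in cluster 11, against 59.96 and 13.3 CPM in cluster 12 (2.51 ± 0.52, edgeR adjusted p = 0.000308), and Gbp2 was among the lower ones. Isg15, a common readout of type I interferon, had 143 and 86.0 CPM in cluster 11, against 59.96 and 99.7 CPM in cluster 12 and was not called (0.27 ± 0.58, edgeR adjusted p = 0.753).

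The lowest gene of cluster 11 by fitted fold change among genes with counts in both clusters was Fabp5 (chr3:10012548-10016607, plus strand), a carrier of fatty acids. Fabp5 had 15.4 and 7.48 CPM in cluster 11, against 9390.4 and 8219 CPM in cluster 12. It was lower in cluster 11 by 9.72 ± 0.42 on the log2 scale (edgeR adjusted p = 4.29e-16), and the mean was 438 CPM in cluster 4. In the list of cholesterol and lipid handling 9 genes were tested, of which Cd36 was higher, Fabp5 and the cholesterol exporter gene Abcg1 were lower and 6 were not called. S100a4, a calcium-binding protein of motile cells, had 10.2 and 18.7 CPM in cluster 11, against 1667 and 1595 CPM in cluster 12 (-6.82 ± 0.33, edgeR adjusted p = 6.44e-15), with a mean of 985 CPM in cluster 4. The muscle enolase gene Eno3 had 20.5 and 3.74 CPM in cluster 11, against 983 and 558 CPM in cluster 12 (-6.13 ± 0.40, edgeR adjusted p = 3.82e-12), and the serpin gene Serpinb6b had 20.5 and 0 CPM in cluster 11, against 372 and 904 CPM in cluster 12. Mreg, Zmynd15, Cacnb3, Nudt17 and 2610528A11Rik completed the 15 genes of lowest fold at 200 CPM or more in cluster 12, each with at most 5.12 CPM in a replicate of cluster 11.

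Of 10 tested genes of glycolysis, 5 were higher and 1 lower in cluster 11, and with the size factors of DESeq2 4 were higher and 1 lower. The enolase gene Eno3, given above as lower in cluster 11, is not on this list. Ldha, which makes lactate, had 502 and 497 CPM in cluster 11, against 95.9 and 159 CPM in cluster 12 (1.77 ± 0.27, edgeR adjusted p = 7.39e-06), and Pfkp, a subunit of phosphofructokinase, had 241 and 239 CPM in cluster 11, against 36.0 and 59.8 CPM in cluster 12 (2.11 ± 0.43, edgeR adjusted p = 0.000257). Pfkfb3, whose product drives phosphofructokinase, went the other way with 56.3 and 7.48 CPM in cluster 11, against 156 and 219 CPM in cluster 12 (-2.90 ± 0.46, edgeR adjusted p = 1.32e-05). All but Gapdh of the genes given here passed the test. Gapdh had 804 and 804 CPM in cluster 11, against 911 and 924 CPM in cluster 12 and was not called (-0.29 ± 0.17, edgeR adjusted p = 0.199). The respiratory chain and ATP synthase had 6 of 69 tested genes higher and 3 lower, with 5 and 5 under the size factors of DESeq2. Of 80 tested genes of the cytosolic ribosome 26 were higher and 2 lower, the lower ones being Rps19 and Rps27l. With the size factors of DESeq2, which shifted the median of all genes by -0.12 on the log2 scale, 18 were higher and 3 lower. After cells with macrophage RNA were removed, 42 were higher and 2 lower.

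Cell cycle genes were mostly too low to test. Mki67, a marker of dividing cells, had 13 UMIs in 7 of 47 cells of cluster 11 and 0 UMIs in the shallower cells of cluster 12, which allows up to 6.82% of cells with a UMI and sets no limit on cells that express the gene. After thinning to 1000 UMIs no cell of either cluster had a UMI of it, and 5.51% of the macrophages of cluster 0 had one before thinning. Of 5 tested members Hmgb2 was higher and Tubb5 and H2afz were lower in cluster 11. The call of Hmgb2 was lost when library 1-2 was left out (edgeR adjusted p = 0.0638), and that of H2afz without replicate 1, at -0.36 (edgeR adjusted p = 0.117). The tubulin gene Tubb5 had 205 and 183 CPM in cluster 11, against 1043 and 1003 CPM in cluster 12 (-2.50 ± 0.20, edgeR adjusted p = 1.88e-10).

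Genes known to respond quickly when a tissue is taken apart were mostly higher in cluster 11. Of 18 tested genes of dissociation stress 14 were higher and 1, Nfkbia, lower, with a median of 1.29. Summed, the list had 24773 and 33642 CPM in cluster 11, against 16370 and 14691 CPM in cluster 12. Cluster 4 had 24391 and 31179 CPM, so the higher level was not particular to cluster 11. Hspa1a, a heat shock chaperone, had 1501 and 3175 CPM in cluster 11, against 396 and 498 CPM in cluster 12 (2.27 ± 0.25, edgeR adjusted p = 4.92e-08), and its call was lost in replicate 1 alone (edgeR adjusted p = 0.216). Its near-identical copy Hspa1b had 984 and 1533 CPM in cluster 11, against 168 and 213 CPM in cluster 12 (2.62 ± 0.30, edgeR adjusted p = 9.51e-08), and reads of the pair could be split by the counting. The AP-1 gene Fos had 1844 and 3197 CPM in cluster 11, against 1019 and 638 CPM in cluster 12 (1.57 ± 0.27, edgeR adjusted p = 4.82e-05), and the antiproliferative gene Btg2 had 1839 and 2543 CPM in cluster 11, against 552 and 505 CPM in cluster 12 (1.99 ± 0.20, edgeR adjusted p = 1.09e-08). The replicates of the clusters did not overlap in these 4 genes. The summed list ran from 0.332% to 3.66% of the UMIs of a library in cluster 11, and from 0.771% to 2.08% in cluster 12, so the libraries of the clusters overlapped. Library 1-1 was the lowest in both clusters, with 3 and 4 cells. Leaving out cells with macrophage RNA, 12 of 17 tested members were higher and 1 was lower. The part of tissue handling in these values was not tested.

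**Figure D5:**
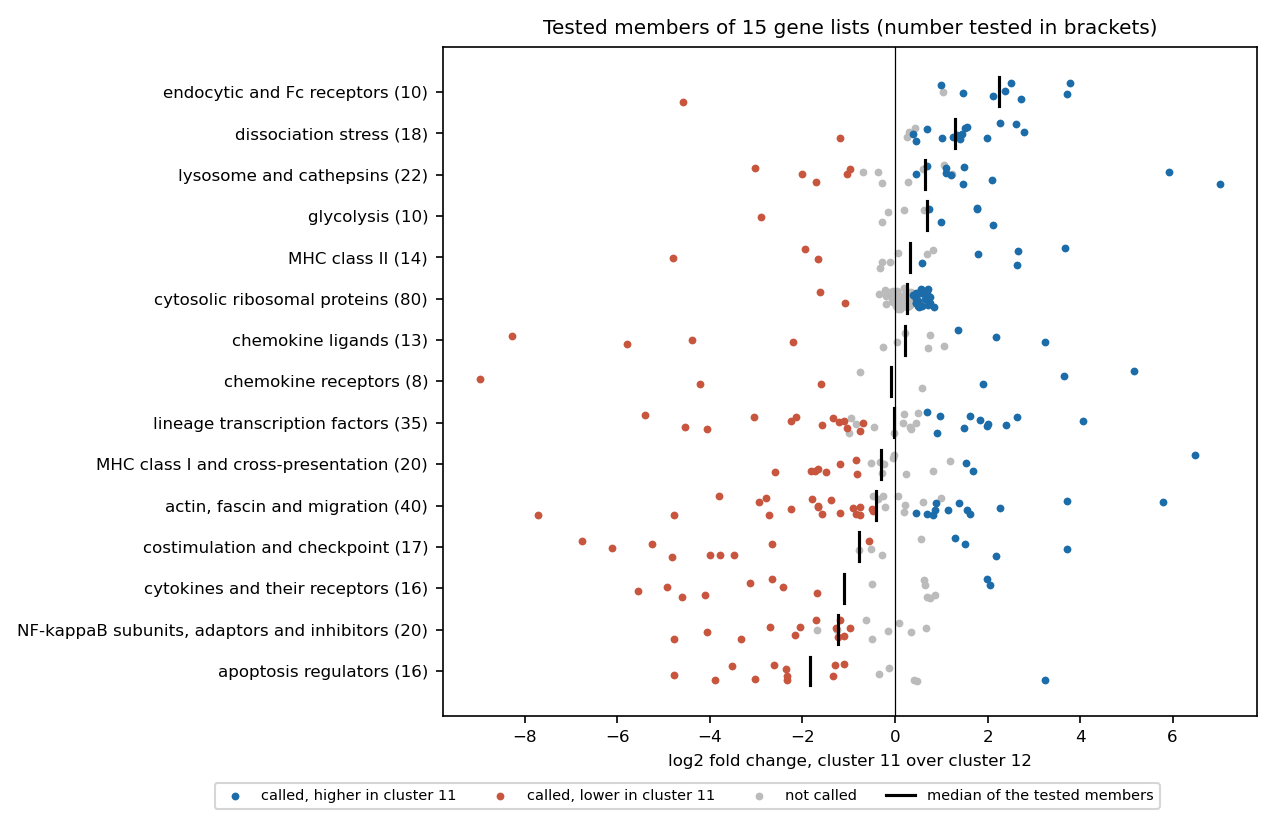
Log2 fold change, cluster 11 over cluster 12, of the tested members of 15 gene lists, with the number tested in brackets, calls in blue (higher) and red (lower) and the median as a black bar; members with 0 counts in a cluster are drawn at the bound that 3 counts would give. Endocytic and Fc receptors have a median of 2.24, the NF-kappaB list of -1.24 and the apoptosis regulators of -1.84.

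Markers of other cells were checked over their whole lists. Of the cDC2 markers, Mgl2, Klf4 and Ccr2 were higher in cluster 11 and Sirpa was not called. The call of Mgl2 was lost in 3 of 11 alternatives. The summed list was 902 and 1140 CPM in cluster 11, 324 and 372 CPM in cluster 12, and 3793 and 3474 CPM in cluster 4. Without the cells with macrophage RNA, Mgl2 had 3 UMIs in cluster 11 and 2 in cluster 12. In 45 of 47 cells of cluster 11 and 34 of 44 cells of cluster 12 the cDC1 markers held more UMIs than the cDC2 markers. In cluster 12 most of these UMIs came from Irf8 and Batf3, while Xcr1, Clec9a and Itgae together had 1 UMI. Which kind of dendritic cell gave rise to cluster 12 was not tested. Of the monocyte markers, Plac8 and Ccr2 were tested and higher in cluster 11, and 4 of the 6 were at 0 in cluster 12. Of the plasmacytoid dendritic cell markers, Bst2 and Tcf4 were tested and not called, and 6 of the 8 were at 0 in cluster 12. Gsn, an actin-severing gene on the fibroblast list, had 169 and 221 CPM in cluster 11, against 36.0 and 19.9 CPM in cluster 12 (2.85 ± 0.58, edgeR adjusted p = 0.000297), while no other member of that list could be tested. Among growth factor receptors Csf1r, a macrophage gene, was higher, and Csf2rb, the shared chain for GM-CSF, was lower with overlapping replicates (-0.81 ± 0.32, edgeR adjusted p = 0.0463). The call of Csf2rb was lost in 9 of 15 alternatives, among them without the replicate block (edgeR adjusted p = 0.0529) and without library 2-2, at -0.55 (edgeR adjusted p = 0.319). With cells that carried macrophage RNA left out, 2 of 2 tested macrophage markers, Lyz2 and Cd68, were still higher in cluster 11. No marker of B cells, T and NK cells, neutrophils or erythroid cells was high enough to be tested, and each of those lists summed to at most 101 CPM in a replicate of either cluster.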

How the data were processed

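Single-cell RNA counts of myeloid cells from 4 libraries were analysed, 2 for each of 2 biological replicates, with 1698585 to 5954716 UMIs a library and 18825 genes. Per the submitters' processing notes the authors used Cell Ranger 3.0.2 with mm10 and Seurat 3.1.1. The deposited values are raw UMI counts per gene and cell; the deposited percent of mitochondrial UMIs and cluster numbers are the authors' own, and the deposited natural log table was not used. No source used here gives the cell filters or says whether doublets were removed. Of the 18825 symbols, 18118 were placed by GENCODE M21.

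Counts were summed per cluster and biological replicate. Genes kept by filterByExpr on the 4 sums of clusters 11 and 12 were tested with the quasi-likelihood test of edgeR 4.0.16 in R 4.3.3, in a fit of 18 sums from 9 macrophage and dendritic clusters with TMM scaling and the biological replicate as a block, since clusters of a replicate come from the same animals. P-values were adjusted by Benjamini-Hochberg over all 2581 genes. The shared fit left 8 residual degrees of freedom, the independent values from which spread is estimated, against 1 for clusters 11 and 12 alone. The p-values therefore rest largely on the spread of other clusters. The shared fit assumes that the small clusters vary like the large ones. Where a cluster had no count of a gene, a fold is a bound against 3 counts over the cluster, and intervals and bounds cover counting error only. On simulated data with 2329 genes tested, 1.92% of genes changed by 1 on the log2 scale were recovered, 58.2% of those changed by 2 and 87.3% of those changed by 3. The simulation gave all genes the same fixed spread and, apart from the changed genes, equal levels in every cluster. Its shares need not hold for these data.

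Genes were named by rule. The first were the 15 highest and 15 lowest called folds at 200 CPM or more in the higher cluster. These also had to move the same way in both biological replicates, so their agreement between replicates is partly fixed by the rule. Up to 4 called members of each list at 50 CPM or more and a short fixed list of markers were added. Other list members were singled out after their values were seen. The clusters, lists and rules were chosen with earlier results of these data known. Alternatives were DESeq2 1.42.0 (size factors and Wald test), other filters, fits, libraries and depths per cell, and, added after seeing the data, leaving out cells in which macrophage markers made up 1% or more of the UMIs. Fits of replicate 1 or replicate 2 alone, that is without the other replicate, took its 2 libraries as samples. Their p-values measure the spread between libraries of 1 replicate and not between replicates. Library 1-1 entered with 3 cells of cluster 11 and 4 cells of cluster 12. Promoters came from a RefSeq table on GRCm38.p6. Some genes that were tested are not reported here.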

Additional observations from a re-analysis of the deposited data

How the results depend on the processing

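No call turned to the opposite direction in any of 17 alternatives, but the number of calls depended on cells and samples. Against 531 higher and 535 lower genes and 227 calls of list members, 349 were higher when only clusters 11 and 12 were fitted, and 211 were higher and 223 lower with the 4 libraries as samples (836 genes tested). Cells thinned to 2000 UMIs gave 138 higher, 178 lower and 125 calls of list members (684 genes tested). Leaving out a library or biological replicate gave 60 to 480 higher genes, 136 to 487 lower genes and 73 to 199 calls of list members. The calls fell by more than 1.5 times without library 1-2 (150 higher, 277 lower), without library 2-2 (253 and 308), in replicate 2 alone (313 and 305) and in replicate 1 alone (60 and 136), where 1405 and 567 genes could be tested. Without the replicate block 513 genes were higher and 527 lower.

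Over 1629 alternative values of 113 single genes, 1560 kept their direction and side of the threshold and 68, in 26 genes, lost the call. A gene that an alternative could not test gave no value there, and these cases are not counted. Xcr1 had a value in 10 of the 17 alternatives. It could not be tested with cells thinned to 2000 UMIs or without the cells with macrophage RNA. In 1 case the sign turned: Flt3, at -0.17 and not called, stood at 0.064 without the cells with macrophage RNA (edgeR adjusted p = 0.906), and the cause was not tested. The Wald test of DESeq2 ended the calls of Xcr1, Itgae, Snx22, Ly75, Spib, Nudt17, Mreg, H2-Eb2, Csf2rb and Irf8. Thinned to 1000 UMIs, the share of cells with a UMI was 19.1% for Xcr1 and 21.3% for Clec9a in cluster 11, and 70.0% for Fscn1 in cluster 12. With 47 and 44 cells, depth limits rare transcripts. In the simulation a change of 1 on the log2 scale was seldom recovered. The fit of these data did call genes at smaller changes, among them H2-Ab1, Tmsb4x and Tmsb10.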
